A study of Mus musculus with 20 samples.

Results

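Genes of fatty acid oxidation and lipid storage were followed in CD8+ T cells sorted from mouse tumours. The set held 32 genes grouped by function, from the acyl-CoA dehydrogenases to the coat proteins of lipid droplets. It was chosen with earlier results of these data known, so its counts beside all genes are descriptive. All 32 were among the 45777 gene symbols of the deposited expression table. Of these, 31 reached at least 1 FPKM in 5 or more of the 20 libraries and were tested, beside 11794 genes kept in all. Cd36 was left untested. FPKM is a fragment count scaled for transcript length and library size, so levels can be set side by side between genes.

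The mice were C57BL/6 animals of the hPD-1/hPD-L1/h4-1BB genotype, named for the human forms of PD-1, PD-L1 and 4-1BB. They bore tumours of MC38, a colon carcinoma line of the mouse, in a form that overexpresses human PD-L1. The 4 groups of 5 libraries each were the Combination (ABL503+pembrolizumab), Pembrolizumab, ABL503 and Control, and cells were sorted on day 4 after treatment. Pembrolizumab blocks human PD-1. ABL503 is an antibody with arms for PD-L1 and for 4-1BB, a costimulatory receptor of activated T cells. The sources used here do not give the age of the mice, what Control mice received, or whether each library came from a separate mouse. The p-values therefore measure spread among libraries, which may be technical. The depth of each library is unknown, since the table holds no counts.

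Fatty acid oxidation shortens acyl chains inside mitochondria and feeds electrons into the respiratory chain. Long chains are first activated to acyl-CoA, then carried across the mitochondrial membranes by the carnitine shuttle, and then cut in a repeated cycle of dehydrogenation, hydration, a second dehydrogenation and thiolysis. Surplus fatty acids are stored as triglyceride in lipid droplets. In T cells the pathway is best known from memory cells and from cells that reside in tissue, whereas freshly activated effector cells rely more on glycolysis.

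CD8 T cell markers were high in every library. The summed FPKM of Cd8a, Cd8b1, Cd3e, Cd3d and Cd2 ran from 2571 to 3701 in the Combination, 2968 to 3489.5 in Pembrolizumab, 2492 to 2924 in ABL503 and 2170.2 to 3389 in Control. Cd8a was higher in the Combination than in Control (log2 change 0.43, SE 0.11, adjusted p = 0.0134). All 5 adipocyte markers stayed below 1 FPKM in every library, and Adipoq was listed at 0 in all libraries but Control 1. Macrophage and monocyte markers, of which 6 of 12 were tested, summed to 20.2 to 39.0 FPKM in the Combination, 26.4 to 82.2 in Pembrolizumab, 25.8 to 80.8 in ABL503 and 14.8 to 139 in Control. None of the 6 passed limma in the Combination against Control (0 of 6), and Csf1r, Adgre1 and Fcgr1, which define macrophages, stayed below 1 FPKM in every library. Dendritic cell markers, of which 7 of 9 were tested, summed to 39.2 to 68.0 FPKM in the Combination, 44.8 to 159.7 in Pembrolizumab, 113 to 287 in ABL503 and 139.7 to 454 in Control. Of these 7, Zbtb46 rose in the Combination against Control, and 4 fell, namely Cd74 and the MHC class II genes H2-Aa, H2-Ab1 and H2-Eb1. In that comparison 12.6% of all genes passed. Of the 9 listed markers Flt3 and Clec9a stayed below 1 FPKM in every library, while Itgax, Xcr1 and Zbtb46 were high enough to be tested. Of 3 tested epithelial and tumour cell markers, Epcam fell (log2 change -0.86, SE 0.26, adjusted p = 0.0339). Of all these markers, only the 12 of macrophages and monocytes entered a fit, with their mean as a covariate. The part of the dendritic, epithelial and other markers in the results below was not tested.

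The level of the set's genes spanned 3 ranges. By mean FPKM over the 20 libraries, 19 genes stood at 10 or more, 10 between 1 and 10, and 3 below 1. The median of the 32 means was 16.4 FPKM, against 6.62 over all genes tested. Etfb, a subunit of the electron transfer flavoprotein, was highest at 194 FPKM on average. Hadhb, the beta subunit of the mitochondrial trifunctional protein, came next at 66.2 FPKM and its partner subunit gene Hadha at 10.7. Fabp5, a cytosolic fatty acid binding protein, averaged 55.7 FPKM, whereas Cd36, a surface receptor for fatty acids, averaged 0.168 and reached 1 FPKM in 1 of 20 libraries. The carnitine shuttle genes were uneven, at 18.8 FPKM for Slc25a20, 5.45 for Cpt1a, 1.07 for Cpt2 and 0.931 for Crat. The acyl-CoA dehydrogenase genes also differed, at 40.8 FPKM for the long-chain enzyme Acadl, 18.7 for the very-long-chain Acadvl, 15.4 for the medium-chain Acadm and 2.06 for the short-chain Acads.

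**Figure D1:**
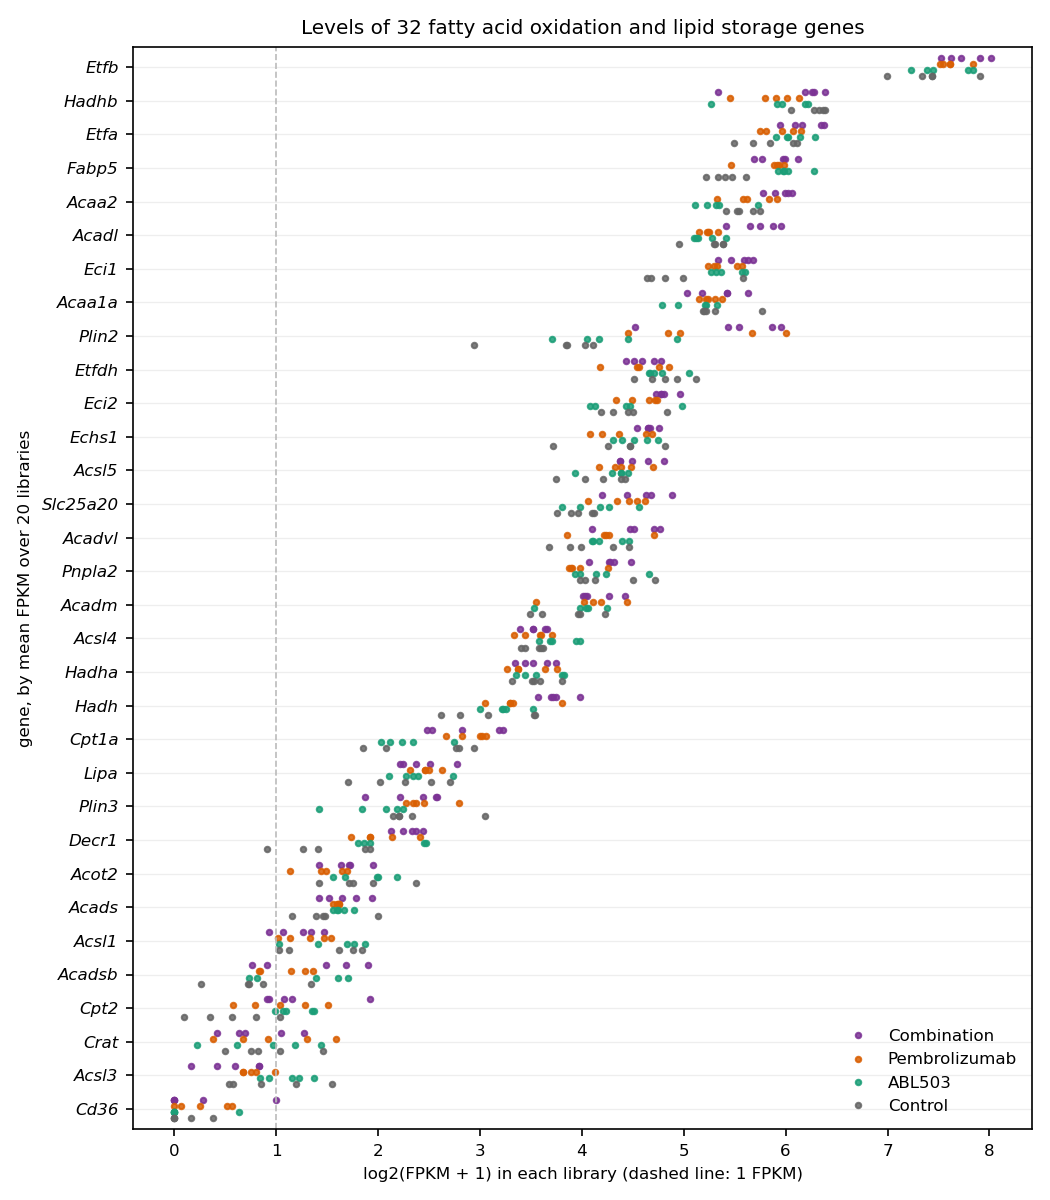
Level of each of the 32 genes in each of the 20 libraries as log2(FPKM + 1), with 1 point per library, coloured by group, and genes ordered by mean FPKM. Etfb lies highest and Cd36 lowest, and the points of Plin2 spread most widely, from 6.67 to 63.4 FPKM.

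Values were tested as log2(FPKM + 1) with limma, with 1 mean per group and a spread shared by all 20 libraries, and the threshold was an adjusted p under 0.05 (Benjamini-Hochberg over the 11794 genes). Log2 changes are differences of mean log2(FPKM + 1), which understate the change of genes with low values such as Decr1 and Cpt2. Of the 31 genes tested, 9 passed in at least 1 of 9 comparisons, beside 19.1% of all genes. Every pass among the 9 was a rise in the group named first, as it was for 8.73% of all genes. The 9 were Plin2, Fabp5, Acadl, Acaa2, Hadh, Eci1, Decr1, Slc25a20 and Cpt1a. In bulk RNA, a change in the share of cells that express a gene and a change in RNA per cell cannot be told apart.

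In the Combination against Control 8 of 31 rose and 0 fell, beside 6.34% of all tested genes that rose and 12.6% that passed in either direction. The median log2 change of the 31 was 0.34, against -0.04 over all genes, and 23 of 31 were positive, against 45.8% of all genes. An unadjusted p under 0.05 was found in 15 of 31, against 28.1% of all genes. In 7 of the 31 the lowest Combination library lay above the highest Control library, as it did in 4.42% of all genes. Pembrolizumab against Control gave 2 rises and 0 falls among the 31, beside 2.77% of all genes that rose and 5.55% that passed, with a median of 0.11 against -0.03. ABL503 against Control gave 1 rise and 0 falls, beside 0.585% and 0.619%, with a median of 0.13 against -0.01. In both of these comparisons 1 gene of the 31 lay above Control without overlap, Plin2 in Pembrolizumab, beside 2.71% of all genes, and Fabp5 in ABL503, beside 1.7%. These 3 comparisons share the 5 Control libraries. The set was chosen with earlier results of these data known, so these shares describe it and do not test it.

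Over the 10 libraries with pembrolizumab against the 10 without it, that is over both levels of ABL503, 6 of 31 rose and 0 fell, beside 6.22% of all genes that rose and 13.5% that passed. Of these 6, only Plin2 also passed in Pembrolizumab against Control. Over the 10 libraries with ABL503 against the 10 without it, 1 of 31 rose and 0 fell, beside 0.678% and 0.772%. The count moved with single libraries in some comparisons. Without Control 5 it was 4 in Pembrolizumab against Control and 2 in ABL503 against Control. Without ABL503 4 it was 3 for pembrolizumab over both levels of ABL503. In Pembrolizumab against Control it was 1 without any 1 of Pembrolizumab 1, 2 or 5 or Control 1, 3 or 4. For ABL503 over both levels of pembrolizumab it was 2 without Control 5, and 0 without any 1 of the libraries other than Combination 3 and 5, Pembrolizumab 1 and 2, ABL503 3, Control 2 and 5.

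**Figure D2:**
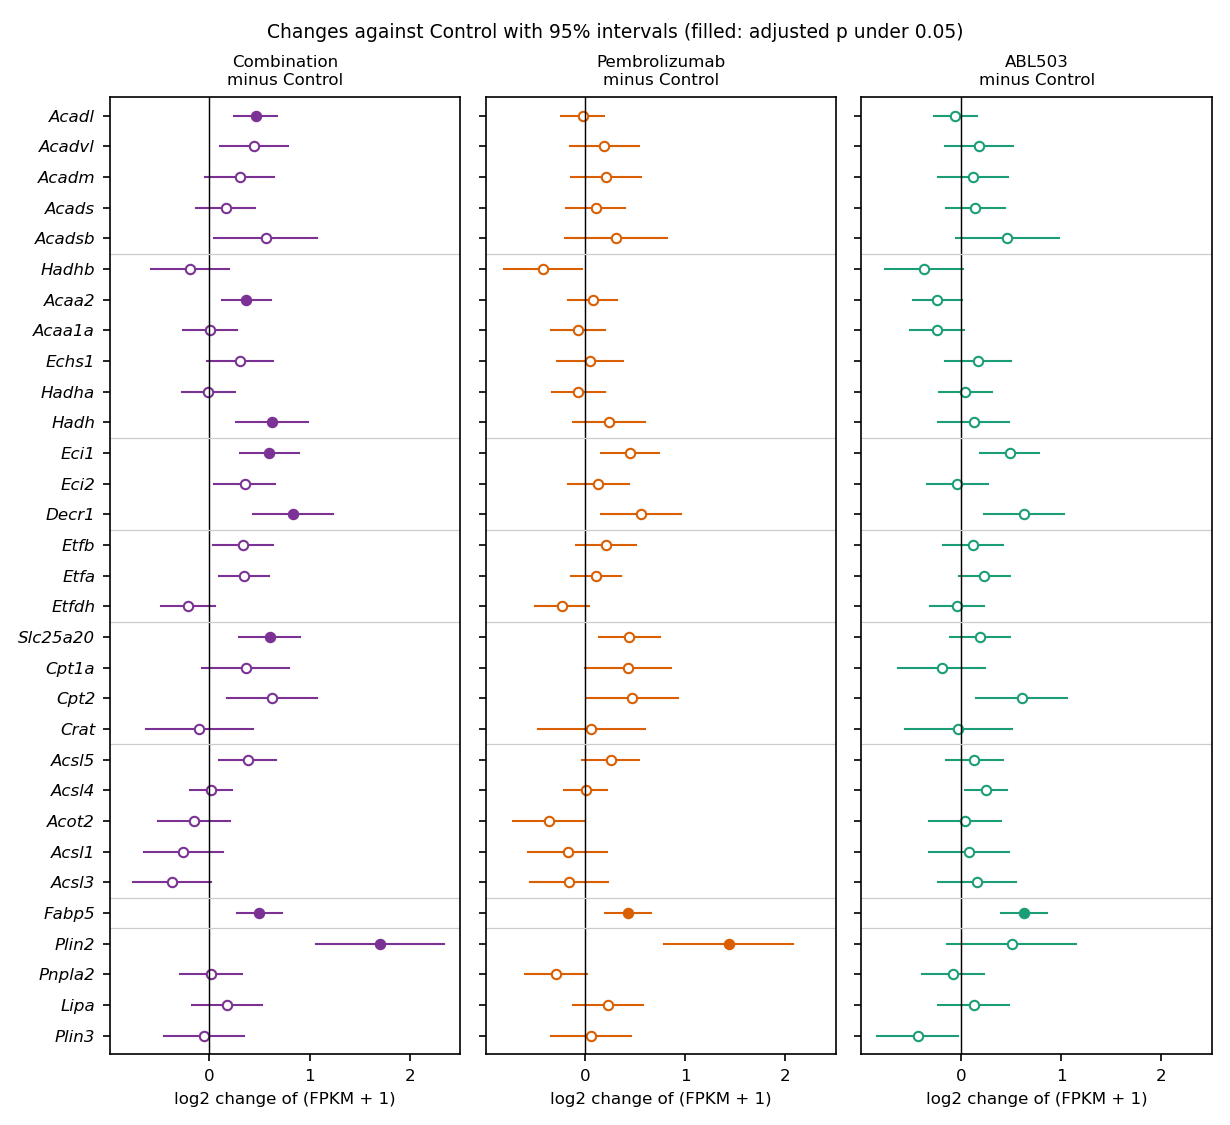
Log2 change of (FPKM + 1) of the 31 tested genes in the Combination, Pembrolizumab and ABL503, each against Control, with 95% intervals from limma and grey lines between roles. Filled points passed, 8 in the Combination, 2 in Pembrolizumab and 1 in ABL503, and all filled points lie right of 0.

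The promoters of 3 genes are shown because these genes stand for the steps described below, Plin2 for storage, Cpt1a for entry into the carnitine shuttle and Acadl for the first step of the cycle. Sequences come from RefSeq (GRCm38.p6) and cover 250 bases before to 50 bases after an annotated start. An entry was found for 28 of the 32 genes, 29 promoters in all, and for none of Acaa2, Crat, Decr1 and Fabp5. Capitals mark AGGTCA, the half-site of nuclear receptors such as the PPAR family, and ACGTG, the core of the site of hypoxia-inducible factors, each searched on both strands, so that AGGTCA on the other strand reads TGACCT.
Plin2: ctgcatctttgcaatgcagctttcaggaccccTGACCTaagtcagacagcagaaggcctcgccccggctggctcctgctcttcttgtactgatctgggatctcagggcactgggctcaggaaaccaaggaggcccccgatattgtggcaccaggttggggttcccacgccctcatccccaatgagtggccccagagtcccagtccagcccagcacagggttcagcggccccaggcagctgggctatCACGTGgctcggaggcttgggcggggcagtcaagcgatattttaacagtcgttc
Cpt1a: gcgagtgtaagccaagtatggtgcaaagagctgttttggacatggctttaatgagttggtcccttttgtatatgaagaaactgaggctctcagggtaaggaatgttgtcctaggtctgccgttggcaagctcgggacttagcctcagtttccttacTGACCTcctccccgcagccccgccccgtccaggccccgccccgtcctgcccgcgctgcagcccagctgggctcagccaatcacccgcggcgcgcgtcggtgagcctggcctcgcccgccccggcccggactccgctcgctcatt
Acadl: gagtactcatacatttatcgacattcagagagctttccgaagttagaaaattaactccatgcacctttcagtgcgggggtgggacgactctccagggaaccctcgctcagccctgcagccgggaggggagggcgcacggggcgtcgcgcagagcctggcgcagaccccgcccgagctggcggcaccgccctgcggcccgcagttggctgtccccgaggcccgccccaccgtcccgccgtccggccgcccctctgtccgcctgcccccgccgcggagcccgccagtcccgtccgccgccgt

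The windows lie at chr4:86670010-86670309 on the minus strand for Plin2, chr19:3323051-3323350 on the plus strand for Cpt1a and chr1:66863260-66863559 on the minus strand for Acadl. Plin2 held AGGTCA once, at position -218 from the start, and ACGTG once on each strand, at positions -4 and -3, which overlap in the E-box CACGTG. Cpt1a held AGGTCA once, at position -94, and no ACGTG. Acadl held neither. Among the 29 promoters of the set, 6 (20.7%) held AGGTCA and 2 (6.90%) held ACGTG, against 16.3% and 19.6% of all 32851 promoters of the same length. The full direct repeat AGGTCANAGGTCA was found in 0 of the 29 and in 13 of all. CACGTG was found in 1 of the 29 and in 7.15% of all. The median GC content was 60.7% in the set and 52.7% in all promoters. These matches describe the letters of the windows.

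Plin2 (chr4:86626910-86670217) encodes perilipin 2, a protein that coats lipid droplets, and showed the largest change of the set in the Combination, in Pembrolizumab and over both levels of ABL503. Its FPKM was 57.4, 45.6, 42.2, 22.0 and 60.9 in the Combination libraries and 27.8, 30.2, 63.4, 20.9 and 50.1 in the Pembrolizumab libraries. It was 29.5, 17.0, 15.6, 12.1 and 20.9 in ABL503 and 15.4, 6.67, 16.3, 13.4 and 13.4 in Control. All 10 libraries with pembrolizumab lay above all 5 of Control, while the ABL503 libraries overlapped every other group. Plin2 averaged 45.6 ± 15.4 FPKM in the Combination, 38.5 ± 17.7 in Pembrolizumab, 19.0 ± 6.66 in ABL503 and 13.0 ± 3.78 in Control (SD, n = 5 each). It rose in the Combination (log2 change 1.71, SE 0.31, adjusted p = 0.00142) and in Pembrolizumab (log2 change 1.43, SE 0.31, adjusted p = 0.0096) against Control. With pembrolizumab over both levels of ABL503 it rose (log2 change 1.32, SE 0.22, adjusted p = 6.05e-04), and in ABL503 against Control it gave a log2 change of 0.51 (SE 0.31, adjusted p = 0.568). It was also higher in the Combination than in ABL503 (log2 change 1.20, SE 0.31, adjusted p = 0.0285). This call ended without any 1 of Combination 1, 2 and 5, ABL503 2, 3 and 4 (adjusted p = 0.062 to 0.0781). The same call was lost without a filter on low values (0.102) and without both Control 1 and ABL503 3 (0.0673). With macrophage markers as a covariate Plin2 passed in all 4 of these comparisons, with adjusted p = 0.00429 in the Combination against Control.

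The other droplet and lipolysis genes did not pass in any of the 9 comparisons. Plin3, a second coat protein, gave a log2 change of -0.05 in the Combination against Control (95% interval -0.45 to 0.35) and -0.43 in ABL503 against Control (adjusted p = 0.404). Its ABL503 libraries, at 3.76, 3.54, 3.22, 1.68 and 2.59 FPKM, all lay below its Pembrolizumab libraries, at 4.07, 4.48, 3.83, 4.17 and 5.93 FPKM (log2 change -0.49, SE 0.19, adjusted p = 0.252), beside 1.18% of all genes without overlap in that direction. Control 1 alone stood apart for this gene, at 7.29 FPKM. Pnpla2, the lipase that opens triglyceride stores, averaged 18.6 ± 1.96 FPKM in the Combination and 18.7 ± 4.57 in Control, with an interval of -0.30 to 0.32 for the log2 change. Lipa, the acid lipase of lysosomes, averaged 4.42 ± 0.903 FPKM in the Combination and 3.89 ± 1.30 in Control, with an interval of -0.17 to 0.53.

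Fabp5 (chr3:10012585-10016610) carries fatty acids through the cytosol and was the gene of the set that passed in all 3 treated groups against Control. Combination libraries gave 61.9, 62.6, 50.6, 68.7 and 53.6 FPKM and Pembrolizumab libraries 62.1, 59.4, 43.1, 58.3 and 60.2. ABL503 libraries gave 76.7, 64.0, 59.6, 61.9 and 62.4 FPKM and Control libraries 39.3, 47.8, 36.4, 41.3 and 43.6. Control was lowest, with no overlap with the Combination or ABL503, while Pembrolizumab 3 fell within the Control range. Fabp5 averaged 59.5 ± 7.32 FPKM in the Combination, 56.6 ± 7.69 in Pembrolizumab, 64.9 ± 6.78 in ABL503 and 41.7 ± 4.32 in Control (SD, n = 5 each). Against Control it rose in the Combination (log2 change 0.50, SE 0.11, adjusted p = 0.00573), in Pembrolizumab (log2 change 0.43, SE 0.11, adjusted p = 0.0264) and in ABL503 (log2 change 0.63, SE 0.11, adjusted p = 0.00663). The Pembrolizumab call ended without any 1 of Pembrolizumab 1, 2 and 5, Control 1, 3 and 4 (adjusted p = 0.0516 to 0.0704). It was likewise lost without a filter on low values (0.0612), with only the groups compared in the fit (0.0645) and without both Control 1 and ABL503 3 (0.0617). In the Combination against Pembrolizumab the log2 change of Fabp5 was 0.07, beside the 0.63 of ABL503 against Control. Averaged over both levels of pembrolizumab, Fabp5 was the 1 gene of the 31 that rose with ABL503 (log2 change 0.35, SE 0.08, adjusted p = 0.037). That call ended without any 1 of the libraries other than Combination 3 and 5, Pembrolizumab 1 and 2, ABL503 3, Control 2 and 5 (adjusted p = 0.0505 to 0.0753). It was lost, too, without a filter on low values (0.0846), with macrophage markers as a covariate (0.104) and without both Control 1 and ABL503 3 (0.0796). The interaction of both antibodies was -0.55 on the log2 scale (SE 0.15, adjusted p = 0.15) and did not pass. RefSeq lists a pseudogene copy of Fabp5, so its value is uncertain to the extent that reads were shared.

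Cd36, the uptake receptor, was listed at 0 in 3 of 5 Combination libraries, 1 of 5 in Pembrolizumab, 4 of 5 in ABL503 and 3 of 5 in Control. Its highest value was 1.00 FPKM, in Combination 3.

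The genes that activate long chains to acyl-CoA, or reverse that step, did not pass either. Acsl5, a long-chain acyl-CoA synthetase, measured 24.1, 27.1, 19.8, 21.5 and 19.8 FPKM in the Combination, 19.0, 25.0, 21.4, 17.0 and 19.9 in Pembrolizumab, 20.8, 18.7, 19.8, 14.3 and 19.9 in ABL503 and 15.4, 12.4, 20.5, 19.8 and 17.5 in Control. Its groups overlapped, and it gave a log2 change of 0.38 (SE 0.14, adjusted p = 0.0718) in the Combination against Control. Its exons overlap those of Zdhhc6 on the opposite strand, at 9.50 FPKM on average, so its value is uncertain. Acsl4, which prefers polyunsaturated chains, gave a log2 change of 0.02 with an interval of -0.20 to 0.23. Acsl1, another synthetase of the family, gave a log2 change of -0.26 (SE 0.19, adjusted p = 0.381). Acsl3, the synthetase found on lipid droplets, had FPKM of 0.783, 0.517, 0.782, 0.121 and 0.342 in the Combination, all below the 1.59, 0.795, 0.905, 1.33 and 1.23 of ABL503 (log2 change -0.53, SE 0.19, adjusted p = 0.106). Its exons overlap those of Utp14b on the same strand, at 0.674 FPKM on average, so its value is uncertain. Such a lack of overlap between groups was found in 2.74% of all genes. Acot2, a mitochondrial thioesterase with a close copy in Acot1, gave a log2 change of -0.15 (SE 0.17, adjusted p = 0.585) in the Combination and a log2 change of -0.36 (SE 0.17, adjusted p = 0.247) in Pembrolizumab.

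The carnitine shuttle brings long chains into mitochondria. Slc25a20 (chr9:108662136-108684642), the carnitine-acylcarnitine carrier of the inner membrane, measured 23.8, 20.7, 28.6, 17.4 and 24.7 FPKM in the Combination, 22.3, 19.3, 23.7, 15.7 and 21.1 in Pembrolizumab, 18.3, 14.8, 22.6, 13.0 and 17.1 in ABL503 and 16.4, 14.6, 13.9, 16.2 and 12.5 in Control. All Combination libraries lay above all Control libraries, and the ABL503 libraries overlapped every other group. It rose in the Combination against Control (log2 change 0.60, SE 0.15, adjusted p = 0.011) and with pembrolizumab over both levels of ABL503 (log2 change 0.42, SE 0.10, adjusted p = 0.0104).

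Cpt1a (chr19:3322326-3385735), the enzyme of the outer membrane that controls entry into the shuttle, passed in 1 comparison. It measured 8.09, 4.78, 8.38, 6.08 and 4.57 FPKM in the Combination and 6.07, 5.33, 7.35, 7.12 and 7.03 in Pembrolizumab. Its values were 5.71, 3.34, 3.09, 3.70 and 4.09 FPKM in ABL503 and 5.95, 5.82, 3.21, 6.70 and 2.62 in Control. The Control libraries split into a trio and a lower pair, and overlapped every other group. With pembrolizumab over both levels of ABL503 Cpt1a rose (log2 change 0.49, SE 0.15, adjusted p = 0.0317). This call ended without any 1 of Combination 1 and 3, Pembrolizumab 3 and 5, ABL503 2, 3 and 4, Control 3 (adjusted p = 0.0502 to 0.0577). It also ended without a filter on low values (0.0871) and without both Control 1 and ABL503 3 (0.0509). In the Combination against Control it gave a log2 change of 0.36 (SE 0.21, adjusted p = 0.263). Cpt2, which releases acyl-CoA on the inner side, gave a log2 change of 0.63 (SE 0.22, adjusted p = 0.0627) in the Combination and a log2 change of 0.60 (SE 0.22, adjusted p = 0.273) in ABL503, at a mean of 1.07 FPKM. Crat, the carnitine acetyltransferase, gave a log2 change of -0.10 in the Combination with a wide interval (-0.63 to 0.43). Its exons overlap those of Dolpp1 on the opposite strand, at 3.45 FPKM on average, so its value is uncertain.

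Among the acyl-CoA dehydrogenases, which start each round of the cycle, Acadl (chr1:66830839-66863309) was the 1 of 5 that passed, beside 19.1% of all genes. Its values were 41.7, 57.7, 49.3, 52.9 and 60.9 FPKM in the Combination, 34.4, 39.4, 36.8, 37.1 and 36.6 in Pembrolizumab, 41.6, 37.8, 34.2, 33.8 and 33.4 in ABL503 and 38.4, 30.0, 38.5, 40.9 and 40.9 in Control. All 5 Combination libraries lay above the 15 others, by a narrow margin for Combination 1 over ABL503 1, and the other 3 groups overlapped. Of all genes, 4.42% lay above Control without overlap in the Combination, 1.59% above Pembrolizumab and 3.19% above ABL503. The share above all 15 at once was not computed. Acadl averaged 52.5 ± 7.48 FPKM in the Combination, 36.9 ± 1.76 in Pembrolizumab, 36.2 ± 3.48 in ABL503 and 37.8 ± 4.51 in Control (SD, n = 5 each). It rose in the Combination against Control (log2 change 0.46, SE 0.10, adjusted p = 0.00681) and against ABL503 (log2 change 0.52, SE 0.10, adjusted p = 0.00658). Against Pembrolizumab it gave a log2 change of 0.49 (SE 0.10, adjusted p = 0.0585). Neither single antibody gave a change that passed, with a log2 change of -0.03 in Pembrolizumab (95% interval -0.24 to 0.19) and -0.06 in ABL503 (-0.27 to 0.16). The interaction of both antibodies was 0.55 on the log2 scale (SE 0.15, adjusted p = 0.136) and did not pass. With pembrolizumab over both levels of ABL503 Acadl rose (log2 change 0.25, SE 0.07, adjusted p = 0.0307). The Acadl call ended without any 1 of Combination 2 and 5, Pembrolizumab 2, ABL503 3, 4 and 5, Control 2 (adjusted p = 0.0505 to 0.0593). The same call was lost without a filter on low values (0.0624), after scaling all libraries to equal sums (0.0605) and without both Control 1 and ABL503 3 (0.0641).

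The other dehydrogenases had positive changes in the Combination against Control that did not pass. Acadvl gave a log2 change of 0.45 (SE 0.16, adjusted p = 0.0772), Acadm a log2 change of 0.30 (SE 0.17, adjusted p = 0.239) and Acads a log2 change of 0.16 (SE 0.14, adjusted p = 0.465). Acadsb, which acts on short branched chains, gave a log2 change of 0.56 (SE 0.25, adjusted p = 0.138) at a mean of 1.27 FPKM.

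In the later steps of the cycle, 2 of 6 genes rose in the Combination against Control, beside 6.34% of all genes. Acaa2 (chr18:74779212-74806207), the mitochondrial ketoacyl-CoA thiolase, measured 58.4, 62.7, 65.7, 54.0 and 64.1 FPKM in the Combination and 46.9, 59.4, 48.4, 39.2 and 56.0 in Pembrolizumab. In ABL503 it measured 52.1, 36.6, 39.6, 38.8 and 33.5 FPKM and in Control 52.9, 50.4, 45.0, 41.6 and 45.5. The Combination libraries lay above all those of ABL503 and of Control and overlapped Pembrolizumab. It averaged 61.0 ± 4.74 FPKM in the Combination, 50.0 ± 7.94 in Pembrolizumab, 40.1 ± 7.08 in ABL503 and 47.1 ± 4.54 in Control. Acaa2 rose in the Combination against ABL503 (log2 change 0.60, SE 0.12, adjusted p = 0.00553) and with pembrolizumab over both levels of ABL503 (log2 change 0.34, SE 0.08, adjusted p = 0.0108). In Pembrolizumab against Control Acaa2 did not pass, and the libraries of these groups overlapped. It also rose in the Combination against Control (log2 change 0.37, SE 0.12, adjusted p = 0.0441). That call ended without any 1 of the libraries other than Combination 4, Pembrolizumab 2, 4 and 5, ABL503 1, 2, 3 and 5, Control 1 (adjusted p = 0.0512 to 0.10). It was likewise lost without a filter on low values (0.102), after scaling all libraries to equal sums (0.0681) and with macrophage markers as a covariate (0.116).

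Hadh (chr3:131233419-131272101), the hydroxyacyl-CoA dehydrogenase of the same cycle, stood at 12.0, 10.9, 14.8, 12.4 and 12.1 FPKM in the Combination and at 9.04, 13.0, 8.80, 7.30 and 8.84 in Pembrolizumab. It stood at 8.34, 10.5, 6.99, 8.55 and 8.29 FPKM in ABL503 and at 5.14, 6.01, 7.45, 10.6 and 10.7 in Control. Combination libraries lay above all of ABL503 and Control, and the Control libraries fell into a lower trio and a higher pair. Hadh rose in the Combination against Control (log2 change 0.62, SE 0.17, adjusted p = 0.0208). This call ended without any 1 of Control 1 and 2 (adjusted p = 0.0567 to 0.0639). It was lost, too, without a filter on low values (0.056), with only the groups compared in the fit (0.0573), with macrophage markers as a covariate (0.058) and without both Control 1 and ABL503 3 (0.0595). With pembrolizumab over both levels of ABL503 it rose (log2 change 0.37, SE 0.12, adjusted p = 0.0475). The Hadh call ended without any 1 of the libraries other than Pembrolizumab 4, ABL503 2, Control 4 and 5 (adjusted p = 0.0534 to 0.0878). It also ended without a filter on low values (0.118), after scaling all libraries to equal sums (0.0636), with array weights (0.056), with macrophage markers as a covariate (0.0712) and without both Control 1 and ABL503 3 (0.136).

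Neither subunit gene of the trifunctional protein, which carries out the last 3 steps on long chains, passed. Hadha averaged 10.7 ± 1.32 FPKM in the Combination and 10.8 ± 1.45 in Control, with a log2 change of -0.01 and an interval of -0.28 to 0.25. Hadhb averaged 69.2 ± 17.1 FPKM in the Combination and 77.1 ± 6.93 in Control (log2 change -0.19, SE 0.19, adjusted p = 0.521). In Pembrolizumab against Control Hadhb gave a log2 change of -0.42 (SE 0.19, adjusted p = 0.21). Echs1, the short-chain enoyl-CoA hydratase, gave a log2 change of 0.31 (SE 0.16, adjusted p = 0.213) in the Combination against Control, and its exons overlap those of Paox on the opposite strand (2.34 FPKM). Acaa1a, the thiolase of peroxisomes, gave a log2 change of 0.0047 with an interval of -0.27 to 0.27. Its exons overlap those of Myd88 on the opposite strand, at 52.9 FPKM on average against 37.7 for Acaa1a. It also has a close copy, Acaa1b, so its value is uncertain.

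Auxiliary enzymes let unsaturated chains enter the cycle, and 2 of 3 rose in the Combination against Control, beside 6.34% of all genes. Eci1 (chr17:24426683-24439316), an enoyl-CoA isomerase, measured 39.4, 48.4, 43.2, 47.2 and 50.4 FPKM in the Combination, 46.6, 45.1, 39.1, 36.8 and 38.3 in Pembrolizumab, 47.6, 46.7, 38.8, 37.6 and 40.2 in ABL503 and 24.6, 24.0, 27.2, 31.0 and 46.7 in Control. In 4 of 5 Control libraries it lay below all 15 treated libraries, and Control 5 stood within their range. Eci1 rose in the Combination against Control (log2 change 0.60, SE 0.14, adjusted p = 0.00867) and gave a log2 change of 0.45 (SE 0.14, adjusted p = 0.0629) in Pembrolizumab and a log2 change of 0.48 (SE 0.14, adjusted p = 0.154) in ABL503.

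Decr1 (chr4:15917240-15945377), the mitochondrial dienoyl-CoA reductase, measured 3.38, 4.45, 3.73, 4.04 and 4.18 FPKM in the Combination and 2.79, 4.33, 2.34, 3.41 and 2.80 in Pembrolizumab. It measured 4.53, 2.63, 2.79, 4.47 and 2.50 FPKM in ABL503 and 0.876, 1.40, 2.66, 1.65 and 2.78 in Control. The Combination lay above Control without overlap. Decr1 rose in the Combination against Control (log2 change 0.83, SE 0.19, adjusted p = 0.00802), and gave a log2 change of 0.56 (SE 0.19, adjusted p = 0.0945) in Pembrolizumab and a log2 change of 0.63 (SE 0.19, adjusted p = 0.186) in ABL503. Eci2, another enoyl-CoA isomerase, gave a log2 change of 0.35 (SE 0.15, adjusted p = 0.12) in the Combination.

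**Figure D3:**
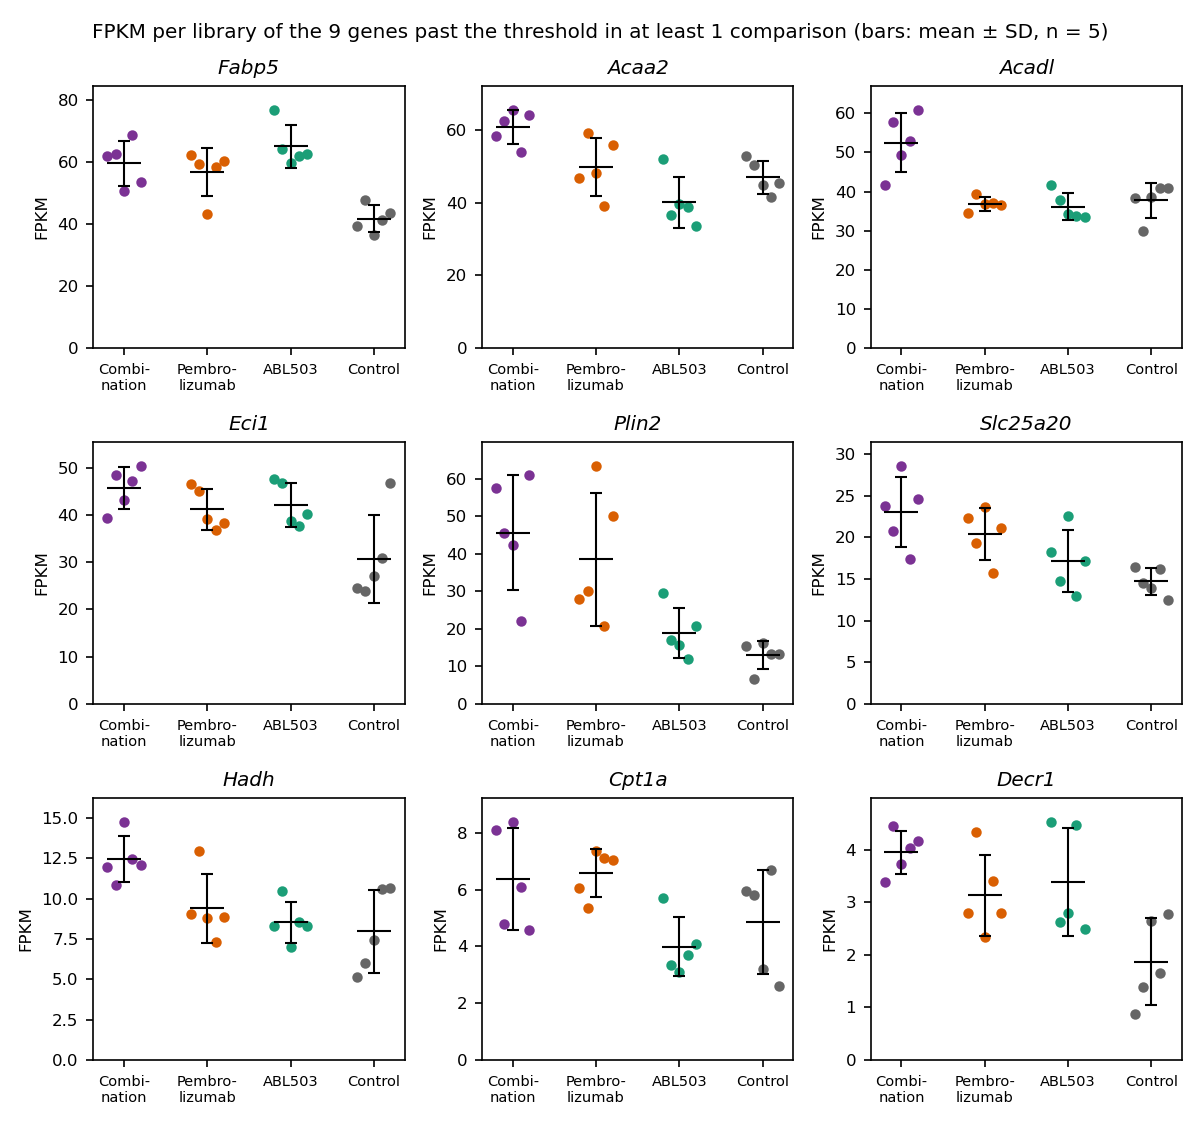
FPKM of the 9 genes that passed in at least 1 comparison, with 1 point per library in replicate order and bars at the mean ± SD of 5 libraries. Plin2 is high in most libraries given pembrolizumab, and Fabp5 is lower in Control than in most treated libraries. Acadl is above 41 FPKM in all 5 Combination libraries and in ABL503 1 (41.6 FPKM).

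None of the 3 genes that pass electrons from the cycle to ubiquinone passed the limma test in any comparison. Etfa, the other subunit of the flavoprotein, had the smallest p of them in the Combination against Control. Its FPKM was 67.3, 82.3, 60.4, 70.5 and 80.6 in the Combination, 66.3, 70.2, 54.9, 52.7 and 61.6 in Pembrolizumab, 77.0, 63.8, 69.7, 63.8 and 59.0 in ABL503 and 50.3, 44.2, 66.1, 56.5 and 68.3 in Control. All 4 groups overlapped, and Etfa gave a log2 change of 0.34 (SE 0.12, adjusted p = 0.0659) in the Combination against Control. Etfb gave a log2 change of 0.34 (SE 0.14, adjusted p = 0.131). The exons of Etfb overlap those of Mir7051 (3.75 FPKM on average) and Gm45233 on the same strand, so its value is uncertain. Etfdh, the membrane-bound oxidoreductase, gave a log2 change of -0.21 (SE 0.13, adjusted p = 0.297). The exons of Etfdh overlap those of 4930579G24Rik on the opposite strand, at 16.6 FPKM on average, so its value is uncertain.

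Between treated groups, genes of the set passed in 1 of 3 comparisons. In the Combination against ABL503 3 of 31 rose, namely Acadl, Acaa2 and Plin2, and 0 fell, beside 2.29% of all genes that rose and 4.53% that passed. Acadl, Hadh and Acaa2 lay above ABL503 without overlap, beside 3.19% of all genes. In the Combination against Pembrolizumab limma called 0 of 31, beside 0.161% of all genes, and 3 of 31 had an unadjusted p under 0.05, against 13.2% of all genes. Without any 1 of Combination 1, Pembrolizumab 2 and Control 2 the count was 1. Acadl lay above Pembrolizumab without overlap, beside 1.59% of all genes. In ABL503 against Pembrolizumab limma called 0 of 31, beside 1.28%, with 6 of 31 at an unadjusted p under 0.05, against 13.5% of all genes. Plin2 gave a log2 change of -0.93 (SE 0.31, adjusted p = 0.164) there. The interaction of both antibodies was called by limma in 0 of 31, beside 0.203%, with 4 of 31 at an unadjusted p under 0.05, against 10.3% of all genes. The 95% interval of the change of Plin2 in the Combination against Pembrolizumab was -0.37 to 0.92, and that of Fabp5 was -0.16 to 0.30.

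A further 106 genes of lipid metabolism, listed by function and outside the 32, were in the table, and 60 were tested. This list too was chosen with earlier results of these data known. In the Combination against Control 7 rose and 4 fell, beside 12.6% of all genes that passed, with a median log2 change of 0.06. In Pembrolizumab against Control 1 rose and 2 fell, beside 5.55% of all genes that passed, and in ABL503 against Control 1 rose and 0 fell, beside 0.619%. Among 5 tested genes of uptake and binding 0 passed limma in the Combination against Control. In the Combination against Control a list of other oxidation and related genes gave 5 rises and 0 falls of 29 tested. Beside this, 6.34% of all genes rose and 12.6% passed. They were Acot7, Hsd17b10, Oxct1, Decr2 (log2 change 0.76, SE 0.21, adjusted p = 0.0232) and Acat1 (log2 change 0.41, SE 0.12, adjusted p = 0.0353). Decr2 and Acat1 are named only to complete the count, after their values were seen. The list is broader than fatty acid oxidation, since it holds Acot7, a thioesterase, and Oxct1 of ketone body use. Acot7, a cytosolic acyl-CoA thioesterase, averaged 186 ± 28.3 FPKM in the Combination, 149.7 ± 14.2 in Pembrolizumab, 139.7 ± 15.4 in ABL503 and 104 ± 4.32 in Control. Against Control it rose in the Combination (log2 change 0.83, SE 0.10, adjusted p = 3.13e-05), in Pembrolizumab (log2 change 0.52, SE 0.10, adjusted p = 0.00395) and in ABL503 (log2 change 0.42, SE 0.10, adjusted p = 0.0482). The ABL503 call ended without any 1 of the libraries other than Combination 3 and 5, Pembrolizumab 4 (adjusted p = 0.0543 to 0.13). The same call was lost without a filter on low values (0.109), with only the groups compared in the fit (0.0556), with array weights (0.061), with macrophage markers as a covariate (0.0727) and without both Control 1 and ABL503 3 (0.182). In the Combination against Control Hsd17b10, a mitochondrial dehydrogenase of short and branched chains, rose (log2 change 0.56, SE 0.11, adjusted p = 0.00345). Oxct1, which lets cells use ketone bodies, also rose (log2 change 0.51, SE 0.12, adjusted p = 0.00898). Crot, a carnitine acyltransferase of peroxisomes, was higher in the Combination than in ABL503 (log2 change 0.71, SE 0.18, adjusted p = 0.0314). This call ended without any 1 of Combination 2, 3 and 5, ABL503 2, 3 and 5 (adjusted p = 0.053 to 0.0859). It was likewise lost without a filter on low values (0.0947) and with macrophage markers as a covariate (0.057).

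Of the 11 droplet and lipolysis genes tested outside the set, Lpin1 and Dgat2 of triglyceride synthesis fell in the Combination against Control. The median log2 change of the 11 was -0.02. Lpin1, a phosphatidate phosphatase, averaged 4.88 ± 1.28 FPKM in the Combination, 6.23 ± 0.930 in Pembrolizumab, 7.79 ± 1.55 in ABL503 and 9.31 ± 0.923 in Control. Against Control it fell in the Combination (log2 change -0.83, SE 0.15, adjusted p = 0.00137) and in Pembrolizumab (log2 change -0.52, SE 0.15, adjusted p = 0.0454). The Pembrolizumab call ended without any 1 of the libraries other than Combination 1, 2, 3 and 5, Pembrolizumab 4, ABL503 1 and 3, Control 1 (adjusted p = 0.0545 to 0.11). It was lost, too, without a filter on low values (0.098) and with macrophage markers as a covariate (0.0517). Dgat2, which adds the last acyl chain, averaged 1.16 ± 0.495 FPKM in the Combination and 3.10 ± 1.25 in Control and fell (log2 change -0.90, SE 0.24, adjusted p = 0.0169). That call ended without Control 1 (adjusted p = 0.0528). It also ended without a filter on low values (0.0512).

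Abhd5, the protein that activates the lipase Pnpla2, rose in the Combination against Control (log2 change 0.47, SE 0.13, adjusted p = 0.0249). This call ended without any 1 of Combination 1 and 5, Control 2 and 3 (adjusted p = 0.052 to 0.0676). The same call was lost with only the groups compared in the fit (0.0578) and with macrophage markers as a covariate (0.0813). Hilpda, an inhibitor of the same lipase that is known to be induced by low oxygen, averaged 118 ± 19.6 FPKM in the Combination, 129 ± 17.0 in Pembrolizumab, 111 ± 13.2 in ABL503 and 96.3 ± 17.5 in Control. It gave a log2 change of 0.30 (SE 0.13, adjusted p = 0.148) in the Combination and a log2 change of 0.43 (SE 0.13, adjusted p = 0.0607) in Pembrolizumab against Control. Bscl2, which encodes the droplet assembly protein seipin, was higher in the Combination than in ABL503 (log2 change 0.38, SE 0.11, adjusted p = 0.0434). The Bscl2 call ended without any 1 of Combination 2, 3 and 4, Pembrolizumab 3, ABL503 1, 2, 4 and 5, Control 3 and 4 (adjusted p = 0.0508 to 0.102). It was likewise lost without a filter on low values (0.0951), after scaling all libraries to equal sums (0.0906), with only the groups compared in the fit (0.089) and with macrophage markers as a covariate (0.0526). Of the 11 droplet and lipolysis genes tested here, 1 rose and 2 fell in the Combination against Control, beside 12.6% of all genes that passed.

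**Figure D4:**
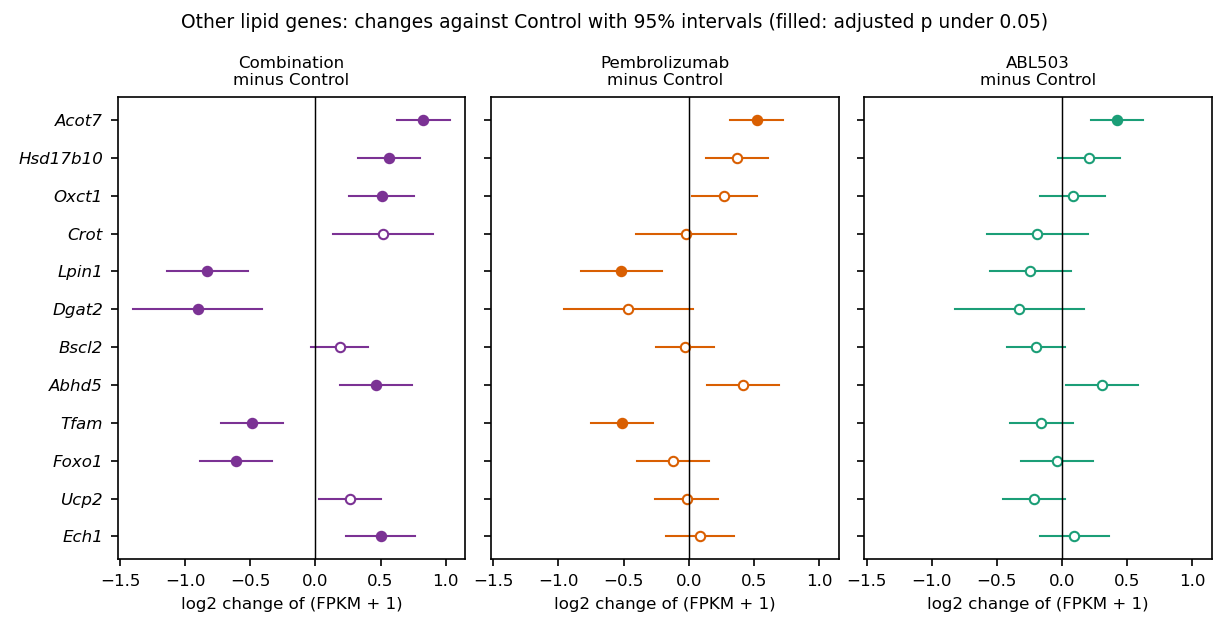
Log2 change of (FPKM + 1) against Control, with 95% intervals from limma, of 12 lipid genes outside the set of 32 that passed in at least 1 comparison. In the Combination Acot7, Hsd17b10, Oxct1, Abhd5 and Ech1 are filled right of 0, and Lpin1, Dgat2, Tfam and Foxo1 are filled left of 0.

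Of 10 tested regulators, 0 rose and 2 fell in the Combination against Control, beside 12.6% of all genes that passed. Tfam, the transcription factor of mitochondrial DNA, averaged 14.7 ± 1.82 FPKM in the Combination, 14.5 ± 1.28 in Pembrolizumab and 21.2 ± 3.27 in Control. It fell in the Combination (log2 change -0.49, SE 0.11, adjusted p = 0.00901) and in Pembrolizumab (log2 change -0.51, SE 0.11, adjusted p = 0.0125). Foxo1, a transcription factor of quiescent and memory T cells, fell in the Combination (log2 change -0.61, SE 0.13, adjusted p = 0.00533). Of 6 tested genes listed as PPAR targets, Ech1, a dienoyl-CoA isomerase, rose in the Combination against Control (log2 change 0.50, SE 0.13, adjusted p = 0.0137). Ucp2, an inner-membrane carrier, was higher in the Combination than in ABL503 (log2 change 0.48, SE 0.11, adjusted p = 0.0197). That call ended without any 1 of Combination 2, ABL503 2 and 5 (adjusted p = 0.0558 to 0.0638). It was lost, too, without a filter on low values (0.056), after scaling all libraries to equal sums (0.052) and with only the groups compared in the fit (0.0708).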

How the data were processed

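RNA from sorted CD8+ T cells was made into libraries with SMART-Seq v4, which amplifies cDNA from few cells, per the labels, which do not say whether strand was kept. Reads were processed with HISAT2 and StringTie on GRCm38 (mm10), per the submitters' processing notes; versions and the annotation are not given in the sources used here. The deposited values are taken as FPKM made by the authors, which is inferred, since the table names no unit. No scaling between libraries is stated, and sums ran from 575918 to 654333.

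The filter kept genes that reached 1 FPKM in 5 or more libraries, and log2(FPKM + 1) was fitted with limma 3.58.1 in R 4.3.3 (all 20 libraries, 16 residual degrees of freedom, variances moderated with an intensity trend, two-sided tests). Whole reads could not be recovered from the values, so no count test was run. The 9 comparisons were all pairs of groups, each antibody over both levels of the other, and the interaction. The 32 genes and the other lists were chosen with earlier results of these data known. Named genes were all of the 32 and, of other lipid lists, up to 4 per list with the smallest p among those that passed, plus a fixed panel. Alternatives are given at the end. Replicates of a group correlated at 0.959 to 0.977 (Pearson's r over genes), and none were duplicates. Positions are from RefSeq (GRCm38.p6). Plots used matplotlib 3.10.9 and summaries pandas 2.3.3 under Python 3.11.15.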

Additional observations from a re-analysis of the deposited data

Results flagged for a closer look

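Among the 31 tested genes of the set, 1 library of 5 stood far from the other 4 of its group for 10 of 124 gene and group pairs, by the gap to its nearest neighbour relative to the range. Chance sets apart about 1 in 20 such groups. Acaa1a stood at 53.5 FPKM in Control 5, above the 35.6 to 38.5 FPKM of the other 4 libraries. Etfb stood at 228 FPKM in Pembrolizumab 2, above the 182 to 195 FPKM of the other 4 libraries. Cpt2 stood at 2.80 FPKM in Combination 3, above the 0.877 to 1.23 FPKM of the other 4 libraries. Fabp5 stood at 76.7 FPKM in ABL503 1, above the 59.6 to 64.0 FPKM of the other 4 libraries. Plin3 stood at 7.29 FPKM in Control 1, above the 3.44 to 4.04 FPKM of the other 4 libraries. Pnpla2 stood at 18.1 FPKM in Pembrolizumab 1, above the 13.7 to 14.9 FPKM of the other 4 libraries. Acadl stood at 30.0 FPKM in Control 2, below the 38.4 to 40.9 FPKM of the other 4 libraries. Acads stood at 1.94 FPKM in Pembrolizumab 2, below the 2.04 to 2.07 FPKM of the other 4 libraries. Hadhb stood at 39.3 FPKM in Combination 4, below the 71.9 to 82.5 FPKM of the other 4 libraries. Fabp5 stood at 43.1 FPKM in Pembrolizumab 3, below the 58.3 to 62.1 FPKM of the other 4 libraries. Pembrolizumab 2 was set apart for 2 genes, high for Etfb and low for Acads, and Fabp5 had 1 such library in each of 2 groups. No cause was tested.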

How the results depend on the processing

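Alternatives were run for the 50 changes of named genes that passed, and not for changes that did not pass or for Decr2, Acat1 and the cell type markers. None of these 50 reversed, and 1194 of 1434 values still passed. Of 267 counts of genes of the set that passed, 228 stayed within 1.5 times the count reported. Leaving out each library in turn gave 7 to 9 genes of the set in the Combination against Control, 1 to 4 in Pembrolizumab against Control, 1 to 2 in ABL503 against Control, 2 to 3 in the Combination against ABL503, 0 to 1 in the Combination against Pembrolizumab, 3 to 9 for pembrolizumab over both levels of ABL503 and 0 to 2 for ABL503 over both levels of pembrolizumab, and 0 for ABL503 against Pembrolizumab and for the interaction. Without a filter the counts were 6 in the Combination against Control, 1 in Pembrolizumab against Control, 3 for pembrolizumab and 0 for ABL503 over both levels of the other antibody. With only the groups compared the count was 1 in Pembrolizumab against Control. Array weights gave 6 in the Combination against ABL503 and 1 in the Combination against Pembrolizumab, where equal sums also gave 1. With macrophage markers as a covariate it was 0 for ABL503 over both levels and 7 in the Combination against Control. An adjusted p under 0.1 gave 5 in Pembrolizumab against Control, 1 in the Combination against Pembrolizumab and 10 for pembrolizumab over both levels. Control 1 and ABL503 3 had the lowest array weights (0.513 and 0.589) and the lowest FPKM sums (583583 and 575918). Without Control 1 and ABL503 3 the counts were 8 in the Combination against Control, 1 in Pembrolizumab against Control and 0 for ABL503 over both levels. The cause of these moves was not tested. Quantile normalization gave 10 in the Combination against Control, and no scaling moved the median of all genes by more than 0.1 on the log2 scale. With the replicate number as a block the count was 8 in the Combination against Control, 3 in Pembrolizumab against Control and 4 for pembrolizumab over both levels, where Acadl, Hadh and Dgat2 no longer passed. Under the block Acot7 in ABL503 against Control (adjusted p = 0.0704) and Bscl2 in the Combination against ABL503 (adjusted p = 0.0588) were lost as well. The 30 pairs of libraries that share a number deviated together with a median r of 0.0259 (-0.146 to 0.107), so the numbers were not taken to pair them. The depth of the libraries is unknown, and changes of genes near 1 FPKM, such as Cpt2, Crat, Acsl3 and Acadsb, are understated by the pseudocount.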
